A study of Mus musculus with 8 samples.

Results

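The replication-dependent histone genes were examined: 67 of the 21887 RefSeq protein-coding genes of the mouse build GRCm38 considered here. They were taken by name, as every gene whose symbol or synonym is one of the clustered H1, H2A, H2B, H3 and H4 names (Hist1h, Hist2h, Hist3h and Hist4h in the older nomenclature). Chromosome 13 carries 54 of them, chromosome 3 carries 10, chromosome 11 carries 2 (H2bu2 and H2aw) and chromosome 6 carries 1 (H4f16). By product there are 6 linker histone H1 genes, 18 H2A, 18 H2B, 12 H3 and 13 H4 genes. The gene listed as H4bc24 has the older name Hist1h2br and was counted with the H2B genes.

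The study mapped phosphorylated RNA polymerase II by CUT&Tag in MEL cells, a mouse erythroid leukaemia line, asking about Myrlin, an enhancer RNA made 81 kb from Myb. CUT&Tag tethers a transposase to an antibody on chromatin, so that DNA next to the antigen is cut and sequenced. The antibodies recognised the C-terminal domain of Rpb1, the largest polymerase subunit, carrying a phosphate at serine 5 (Ser5P) or at serine 2 (Ser2P). Each of the 4 groups had 2 libraries, 8 in all: Ser5P in Myrlin KD cells, Ser5P in dCAS control cells, Ser2P in Myrlin KD cells and Ser2P in dCAS control cells.

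Both lines are MEL cells, and the series' design text names them dCAS_Myrlin and dCAS_control, so the KD and its control share the dCAS background. The labels name no guide, do not say whether either line is 1 clone, and call the 2 libraries of a group biological replicates without saying how the cultures were separated. The p-values below therefore rest on library-to-library spread alone, and that spread could be technical.

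Replication-dependent histone genes are short, mostly intronless and packed in clusters, and they are transcribed mainly in S phase. Their messenger RNAs end in a stem-loop bound by SLBP rather than in a poly(A) tail, and their transcription is organised by NPAT in the histone locus body. Serine 5 of the polymerase tail is phosphorylated around initiation, and serine 2 phosphorylation is typical of elongation and increases towards the ends of long genes. Cycling erythroid precursors need large amounts of histone, and MEL cells divide rapidly.

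Promoters are shown for 7 genes that carry the results: a linker gene, a shared H2A and H2B promoter, the 2 genes that differed by presence between the lines, an H4 gene, a testis gene and a duplicated gene with no peak. They are RefSeq windows of build GRCm38.p6 running from 250 bases before to 50 bases after the annotated start, 300 bases each, written along the gene. H1f2 lies at chr13:23738557-23738856 (plus strand), H2bc8 at chr13:23571150-23571449 (plus), H3c6 at chr13:23562336-23562635 (minus) and H3c10 at chr13:21717378-21717677 (plus). H4c1 lies at chr13:23761200-23761499 (minus), H2bc1 at chr13:23934107-23934406 (minus) and H2bc23 at chr13:21810150-21810449 (minus). Capitals mark every match to 4 motifs: CCAAT, ATTTGCAT (the octamer that POU2F1 binds) and AAACACA (the H1 box) on either strand, where a match on the opposite strand reads as its reverse complement, and TATAAA on the gene's own strand.
H1f2: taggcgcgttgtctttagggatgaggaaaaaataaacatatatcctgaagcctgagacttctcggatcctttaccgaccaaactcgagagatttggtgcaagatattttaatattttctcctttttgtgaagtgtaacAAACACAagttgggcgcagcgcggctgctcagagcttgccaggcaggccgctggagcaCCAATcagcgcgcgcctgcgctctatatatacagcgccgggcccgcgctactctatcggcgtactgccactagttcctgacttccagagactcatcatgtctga
H2bc8: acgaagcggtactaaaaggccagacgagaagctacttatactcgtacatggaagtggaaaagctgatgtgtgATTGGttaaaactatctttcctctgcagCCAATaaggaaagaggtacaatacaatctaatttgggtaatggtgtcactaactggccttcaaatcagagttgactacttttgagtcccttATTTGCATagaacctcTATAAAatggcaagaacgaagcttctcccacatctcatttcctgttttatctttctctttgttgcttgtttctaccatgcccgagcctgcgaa
H3c6: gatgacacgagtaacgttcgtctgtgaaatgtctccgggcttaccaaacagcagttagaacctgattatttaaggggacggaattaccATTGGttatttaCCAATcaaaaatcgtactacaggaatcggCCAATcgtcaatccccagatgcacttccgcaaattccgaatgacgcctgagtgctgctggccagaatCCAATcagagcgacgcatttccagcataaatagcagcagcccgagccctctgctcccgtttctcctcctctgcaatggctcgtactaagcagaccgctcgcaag
H3c10: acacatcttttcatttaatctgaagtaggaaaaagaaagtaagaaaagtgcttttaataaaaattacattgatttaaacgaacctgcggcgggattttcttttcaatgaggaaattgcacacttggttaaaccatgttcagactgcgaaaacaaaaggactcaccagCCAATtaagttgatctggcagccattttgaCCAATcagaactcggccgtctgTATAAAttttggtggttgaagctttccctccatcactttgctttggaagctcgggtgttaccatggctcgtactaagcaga
H4c1: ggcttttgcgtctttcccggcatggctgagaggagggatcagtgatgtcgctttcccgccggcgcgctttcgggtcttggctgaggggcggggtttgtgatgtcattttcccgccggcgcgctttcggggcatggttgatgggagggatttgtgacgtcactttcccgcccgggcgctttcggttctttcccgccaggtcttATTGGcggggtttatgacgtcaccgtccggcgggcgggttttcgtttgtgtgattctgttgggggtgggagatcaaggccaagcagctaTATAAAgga
H2bc1: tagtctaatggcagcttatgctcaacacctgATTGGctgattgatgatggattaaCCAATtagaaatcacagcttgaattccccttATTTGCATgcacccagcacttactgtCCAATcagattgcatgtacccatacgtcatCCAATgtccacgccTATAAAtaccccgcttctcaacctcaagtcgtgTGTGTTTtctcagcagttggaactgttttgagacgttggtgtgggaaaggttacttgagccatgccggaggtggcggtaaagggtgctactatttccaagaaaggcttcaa
H2bc23: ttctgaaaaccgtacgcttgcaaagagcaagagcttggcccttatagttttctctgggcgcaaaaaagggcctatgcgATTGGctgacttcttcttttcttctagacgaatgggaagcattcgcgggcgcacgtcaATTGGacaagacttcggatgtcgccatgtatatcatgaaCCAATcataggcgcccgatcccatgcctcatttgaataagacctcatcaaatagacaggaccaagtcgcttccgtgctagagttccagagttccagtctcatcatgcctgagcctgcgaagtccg

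The letters differ by histone class. Of the 67 genes, 62 had a promoter window in the RefSeq table, and 53 of these 62 (85.5%) held CCAAT, beside 37.4% of all 32851 windows. Every H1 (6 of 6), H2A (18 of 18), H2B (16 of 16) and H3 (10 of 10) window held it, against 3 of 12 H4 windows. The octamer was in 7 of 18 H2A and 7 of 16 H2B windows and in no H1, H3 or H4 window, beside 1.74% of all windows. Windows of H2A and H2B genes that share a promoter overlap, and CCAAT and the octamer were sought on both strands. A single site can thus count for both genes, so the H2A and H2B counts are not separate. The H1 box was in 5 of 6 H1 windows, beside 7.18% of all windows, and TATAAA was in 30 of 62 (48.4%), beside 8.32%. H3c6 holds 4 CCAAT matches, H1f2 its H1 box 112 bases and its CCAAT 54 bases before the start, and H4c1 its TATAAA after the start, at position 41. A match describes these letters only: the CCAAT share was 84.9% among the 53 windows with Ser5P in all 4 libraries and 87.5% among the 8 with no Ser5P peak. No promoter window was used for H3c7, H2bc4, H3c1, H2bc21 and H4c14.

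Peaks off the autosomes, X and Y, 24 to 30 in each deposited list, were left out. The Ser5P lists then held 21574 and 24509 peaks in KD cells and 23964 and 25441 in control cells. The Ser2P lists held 32125 and 29372 peaks in KD cells and 30286 and 20793 in control cells. The last of these, Ser2P control library 2, had the shortest list and the narrowest peaks (median 381 bp). The lists give no read totals, so the depth behind a missing peak is unknown. Of 10 erythroid markers, 8 had Ser5P peaks in all 4 libraries and 8 had Ser2P peaks in all 4, the exceptions being Hba-a1, with Ser5P in 2 libraries and no Ser2P, and Slc4a1, with each mark in 1 library. Of 5 lymphoid markers, 0 had Ser5P or Ser2P in all 4, and of 5 non-haematopoietic markers 1 had both. CUT&Tag does not read the Myrlin transcript, so the knockdown itself was not checked here. Peaks covered 2.78% and 3.07% of the Myb window in Ser5P KD libraries, against 1.88% and 3.39% in Ser5P control libraries, and 3.80% and 3.33% in Ser2P KD libraries, against 5.11% and 0% in Ser2P control libraries.

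Histone genes carried Ser5P almost throughout. A gene was counted as marked when a peak overlapped it or the 500 bp on either side by at least 1 bp, stopping at the next gene. Ser5P marked 58 and 58 histone genes in KD libraries and 59 and 59 in control libraries, and 58 of 67 (86.6%) in all 4, beside 46.4% of all genes. One gene, H3c10, was marked in the control libraries alone, and 8 (11.9%) were marked in none, beside 42.8% of all genes. No test was made of these shares, because the genes were chosen with results of these data known and because neighbours share peaks: the marked genes rested on 45 or 46 distinct strongest peaks per library.

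All classes took part. Ser5P was present in all 4 libraries over 6 of 6 H1 genes, 15 of 18 H2A genes, 15 of 18 H2B genes, 10 of 12 H3 genes and 12 of 13 H4 genes. The covered percent, the share of a gene's window lying under peaks, had a class median of 71.7% for H1, 52.5% for H2A, 56.4% for H2B, 43.9% for H3 and 60.7% for H4 when averaged over the 4 Ser5P libraries. Over all 67 genes the median was 52.4% and 54.9% in KD libraries, against 51.0% and 53.7% in control libraries.

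**Figure D1:**
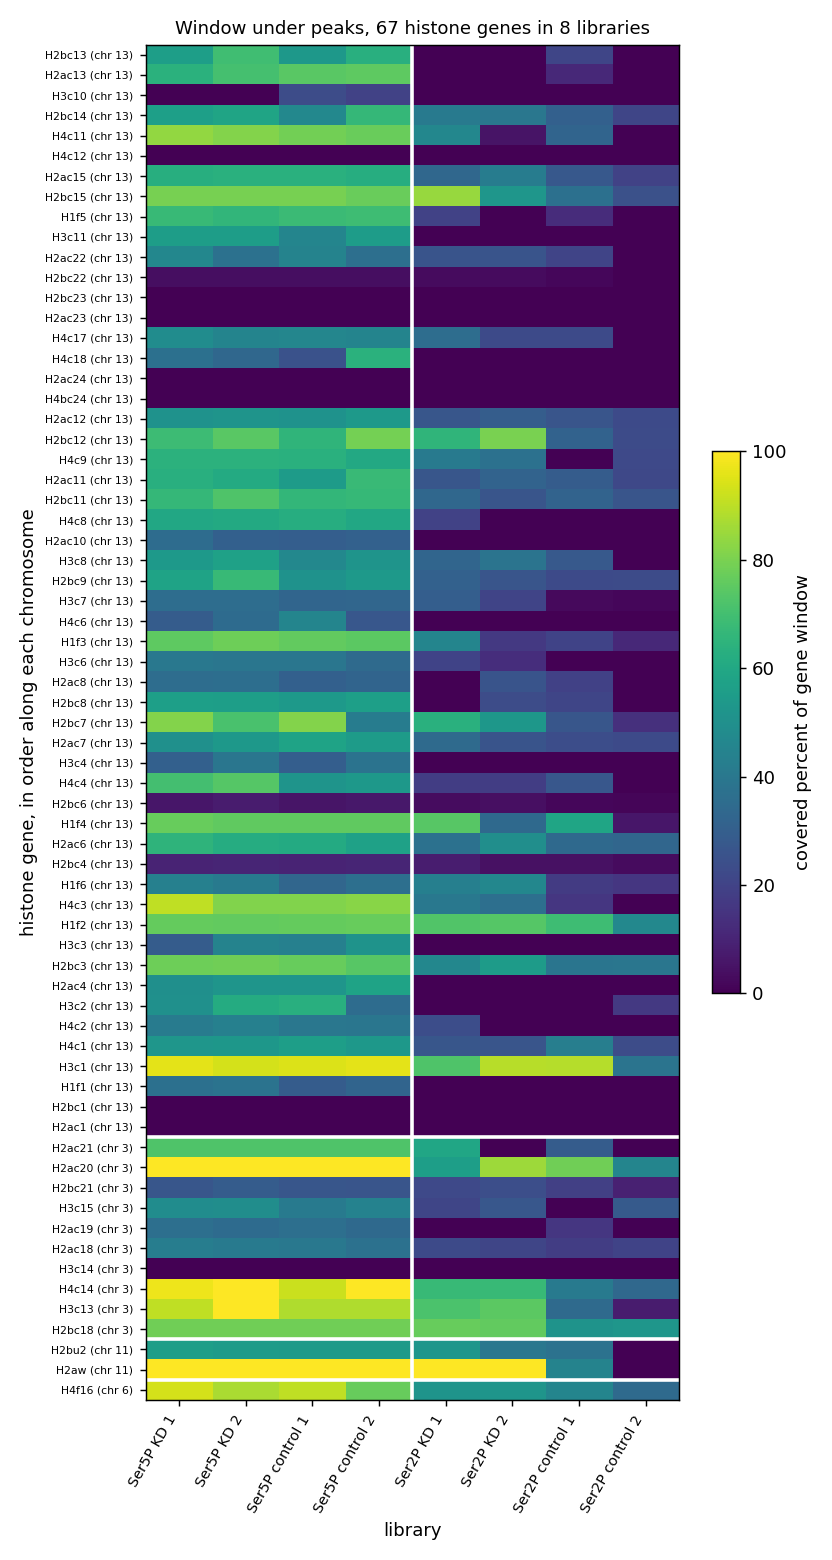
Covered percent of the window of each of the 67 histone genes (rows, in order along chromosomes 13, 3, 11 and 6) in each of the 8 libraries (columns, Ser5P left of Ser2P and KD left of control). The 4 Ser5P columns look alike, with 58 genes marked in every one, while Ser2P control 2 has 31 marked genes.

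The main cluster on chromosome 13 falls into separate groups where gaps exceed 100 kb. The group of 29 genes between H4c8 and H1f1 spans 234 kb, and all 29 carried Ser5P in every library. The group of 18 genes between H2bc13 and H4bc24 spans 123 kb, and 12 of the 18 did. The group of 5 genes between H2ac12 and H2bc11 spans 9.54 kb, and all 5 did. The remaining pair, H2bc1 and H2ac1, carried no peak of either antibody. On chromosome 3 the 10 genes span 51.3 kb, and 9 carried Ser5P in all 4 libraries.

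The linker histones, which bind the nucleosome dyad and compact chromatin, included some of the most evenly covered genes. H1f2 had 76.2% and 76.0% of its window under Ser5P in KD cells, against 76.2% and 76.6% in control cells. H1f3 had 75.3% and 78.0% in KD cells, against 75.8% and 74.8% in control cells, and H1f4 had 76.9% and 75.7% in KD cells, against 75.7% and 75.7% in control cells. For these 3 genes the libraries of both lines overlapped. H1f6, the testis linker gene also called H1t, was marked as well, at 43.5% and 41.2% in KD cells, against 33.1% and 36.5% in control cells, without overlap. Its strongest Ser5P peaks stood low in the lists, at percentiles of 9.58 and 15.1 in KD cells and 16.04 and 13.03 in control cells, and its Ser2P peaks stood near the middle, at 49.6 and 57.5 in KD cells and 48.3 and 64.2 in control cells.

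H2A and H2B, which pair as dimers in the nucleosome, are often transcribed away from each other from a shared promoter. There were 12 such pairs, with 163 to 280 bp between the 2 starts. In 9 of them a single Ser5P peak covered both starts in all 4 libraries, and the whole gap lay under it; the other 3 pairs had no peak. The promoter of H2bc8 printed above reaches into H2ac8, whose 5′ end lies at base 23571220, and the strongest Ser5P peaks of these 2 genes were the same in every library. Among the named H2A and H2B genes, H2ac20 on chromosome 3 had 100% of its short 717-bp window under Ser5P in all 4 libraries. Its partner H2bc21 had 26.6% and 29.2% in KD cells, against 26.7% and 26.5% in control cells, over a longer RefSeq interval. H2ac6 had 64.9% and 61.9% in KD cells, against 61.1% and 57.3% in control cells. H2ac6 and its partner H2bc4 had the highest mean rank of the genes marked in all 8 libraries, at the 90.8th percentile by the authors' fold enrichment.

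H3 and H4 form the tetramer at the core of the nucleosome. H3c1 had 95.9% and 93.7% of its window under Ser5P in KD cells, against 94.8% and 95.9% in control cells. H4c14 on chromosome 3 had 97.3% and 100% in KD cells, against 92.0% and 100% in control cells. The lines overlapped at both genes. H4f16, the lone member on chromosome 6, had 93.5% and 87.3% in KD cells, against 90.3% and 76.7% in control cells, with the libraries interleaved.

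H4c17 carried the strongest peak of any histone gene, and it did not lie on the promoter. Its Ser5P fold enrichment was 26.6 and 26.6 in KD libraries, against 29.5 and 28.7 in control libraries, at the 99.99th percentile or above of each list. The summit lay 664 to 671 bp from the 5′ end, past the 3′ end of this 405-bp gene. Ser2P peaks were at the same place with a fold of 10.8 and 9.86 in KD libraries and 8.43 in control library 1. Its near copy H4c18, whose promoter shares 94.0% of its 50-base words with that of H4c17, had a Ser5P fold of 9.73 and 7.83 in KD libraries, against 7.19 and 8.36 in control libraries, and no Ser2P peak.

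Ser2P covered the same genes less completely. It marked 44 and 42 histone genes in KD libraries and 44 and 31 in control libraries, and 28 of 67 (41.8%) in all 4, beside 45.6% of all genes. Without Ser2P control library 2 the number marked in all the remaining libraries was 37. No library had a Ser2P peak over 17 histone genes (25.4%), beside 41.2% of all genes, and 22 (32.8%) were marked in 1 to 3 libraries, beside 13.2% of all genes. Both antibodies marked 28 of 67 (41.8%) in all 8 libraries, beside 42.9% of all genes. By class, 4 of 6 H1, 7 of 18 H2A, 11 of 18 H2B, 3 of 12 H3 and 3 of 13 H4 genes had Ser2P in all 4 libraries.

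The contrast with other genes lay in those that already had Ser5P. To compare genes over windows of the same length, windows from 500 bp before to 1000 bp after the 5′ end were also used. This choice was made after seeing the data. It does not make the genes alike in length, as the median was 492 bp for histone genes and 17169 bp for all genes. The windows therefore ran past the 3′ end of most histone genes, and other short genes were not compared as a group. In these, Ser2P was present in all 4 libraries over 28 of 67 histone genes, beside 35.7% of 21536 genes with a known strand. Among genes with Ser5P in all 4 libraries it was present in all 4 over 28 of 58 histone genes (48.3%), beside 91.4% of the 8001 genes of any kind. The median length under Ser2P over the 58 was 536.5 and 448 bp in KD libraries, against 370.5 and 128.5 bp in control libraries. Over the 8001 genes it was 787 and 755 bp in KD libraries, against 686 and 535 bp in control libraries. For Ser5P the histone genes had the longer stretch, at 921 and 957.5 bp in KD libraries and 904.5 and 890.5 bp in control libraries, beside 744 and 786 bp in KD libraries and 704 and 725 bp in control libraries over the 8001 genes.

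Ser5P covered more of nearly every marked histone gene than Ser2P. The covered percent in every Ser5P library exceeded that in every Ser2P library for 53 of 67 histone genes (79.1%), beside 2.13% of all genes, and lay below it for 0, beside 1.04%. In the windows of equal length the first count was 54 of 67, beside 2.16%, the second 0, beside 0.395%, and among genes with constant Ser5P it was 54 of 58, beside 5.81%. The 2 antibodies give separate peak lists, so an effect of antibody and of phosphorylation cannot be told apart. The comparison with all genes uses the same 8 lists for both.

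**Figure D2:**
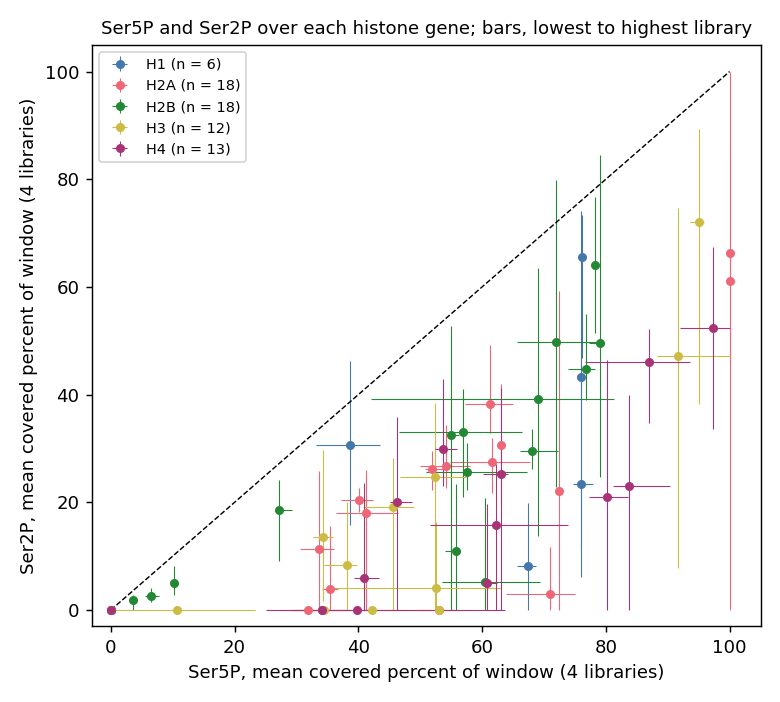
Mean covered percent of each histone gene's window for Ser5P (horizontal axis) and Ser2P (vertical axis) over 4 libraries each, coloured by class, with bars from the lowest to the highest library and a dashed line of equality. Every histone gene with a peak lies below the line, and those on the horizontal axis had no Ser2P peak.

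Across all genes, limma, which fits each gene with a spread moderated over all of them, called 51 of 13237 genes higher for Ser5P than for Ser2P at a Benjamini-Hochberg adjusted p of 0.05 or less, and 15 lower. Of the 51, 28 were histone genes: 28 of 59 tested, or 41.8% of all 67, beside 0.385% of the genes tested. None was called lower, beside 0.113%, and 54 of 59 were higher at an unadjusted p under 0.05, beside 5.79%, with 0 lower, beside 5.23%. The median difference, Ser5P minus Ser2P, was 31.9 points of covered percent over the 59 histone genes and 0.01 points over all genes tested, most of which have far longer windows. In the windows of equal length it was 33.7 points over the histone genes and 1.93 over all genes. The 28 comprised 3 H1, 9 H2A, 5 H2B, 4 H3 and 7 H4 genes. Among the called genes outside the set, the largest excess of Ser5P was 29.8 points at Ftl1, then 23.6 points at Pcbp1.

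The size of that count depended on the libraries and the fit. It was 6 with a replicate block and 17 with no filter on unmarked genes. It was 11 without Ser2P KD library 2, 13 without Ser5P KD library 1, 15 without Ser5P KD library 2, 17 without Ser5P control library 1 and 17 without Ser5P control library 2. With 2 against 2 libraries inside 1 line, no histone gene passed: 0 within KD cells and 0 within control cells by limma, with 42 (beside 2.87% of genes) and 52 (beside 5.96%) higher at an unadjusted p under 0.05 and 0 lower in either (beside 9.28% and 1.32%). All 59 histone genes tested were higher for Ser5P within control cells, and 55 of 58 within KD cells.

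The 6 histone genes with the smallest p were genes with little or no Ser2P. H2ac4 had 49.8% and 52.0% of its window under Ser5P in KD cells, and 52.3% and 58.1% in control cells, and no Ser2P peak in any library. Its difference was 53.0 ± 2.0 points (SE; limma adjusted p = 0.00042). H2ac10 differed by 31.8 ± 1.31 points (adjusted p = 0.00042), H3c11 by 53.1 ± 2.52 and H1f1, a linker gene, by 34.2 ± 1.68 points (limma adjusted p = 0.000553 for both). H3c4 differed by 34.4 ± 2.43 points (limma adjusted p = 0.00312). All 4 also had 0 Ser2P coverage everywhere. H2ac13 differed by 68.1 ± 3.27 points (limma adjusted p = 0.000553) and had Ser2P in control library 1 alone, at 11.6%. A gene at 0 in all 4 Ser2P libraries has no spread there, which narrows the SE that limma gives it.

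At the other end stood genes covered by both marks. H1f2 had 72.9% and 73.4% of its window under Ser2P in KD cells, against 69.0% and 46.7% in control cells, and Ser5P exceeded Ser2P by 10.7 ± 5.82 points (SE; 95% interval −3.09 to 24.5; limma adjusted p = 0.566). H1f6 differed by 7.90 ± 4.48 points (95% interval −2.74 to 18.5; limma adjusted p = 0.577). H3c1 had 72.3% and 89.3% under Ser2P in KD cells, against 88.7% and 38.3% in control cells, a difference of 22.9 ± 11 points (95% interval −3.11 to 49.0; limma adjusted p = 0.506). These intervals are wide, and the misses do not show equal marking.

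The chromosome 3 genes spanned both patterns. H2bc18 had 76.7% and 75.8% under Ser2P in KD cells, against 51.4% and 52.5% in control cells, and 78.3% under Ser5P in all 4 libraries. H4c14 exceeded by 45.0 ± 6.18 points (limma adjusted p = 0.0391), and H2ac18 by 19.7 ± 1.80 points (limma adjusted p = 0.00863). H2ac19, which shares 67.7% of its promoter's 50-base words with H2ac18, had Ser2P in control library 1 alone and differed by 31.6 ± 3.57 points (limma adjusted p = 0.0163). H3c13, H3c15, H2ac20, H2ac21, H2bc18 and H2bc21 did not pass, with limma adjusted p between 0.183 and 0.431, and H3c14 had no peak. Of the chromosome 11 genes, H2aw had 100% of its 508-bp window, the gene with no extension, under Ser5P in all 4 libraries. H2bu2 had 56.2% and 54.9% in KD cells, against 54.4% and 54.4% in control cells. Neither passed against Ser2P (limma adjusted p = 0.474 and 0.447). H4f16 did, by 40.9 ± 4.54 points (limma adjusted p = 0.0159).

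Median summits lay near the starts of the genes, with a wide spread. Summits inside the window were taken for histone genes of at most 1000 bp, which left 52 genes for Ser5P and 44 for Ser2P. This choice keeps summits near the gene, and left out such peaks as that over H4c1, whose Ser5P summit lay at −1135 bp from the 5′ end in all 4 libraries. The median distance from the annotated 5′ end to the strongest summit was 17 and −1 bp for Ser5P in KD libraries, against 2.5 and 14.5 bp in control libraries. For Ser2P it was 54.5 and 20 bp in KD libraries, against −33 and −55 bp in control libraries, so the Ser2P libraries of the lines lay on either side of the start. Of the Ser5P summits, 44.7% lay before the 5′ end, 45.7% inside the gene and 9.55% past its 3′ end. Of the Ser2P summits, 49.6% lay before, 33.3% inside and 17.1% past. At the 5′ end itself, Ser5P peaks covered 80.3% and 80.3% of the 61 histone genes of at most 1000 bp in KD libraries, against 82.0% and 82.0% in control libraries. Ser2P peaks covered 47.5% and 44.3% there in KD libraries, against 49.2% and 26.2% in control libraries. Over all 21536 genes of known strand the share at the 5′ end was 32.5% and 32.9% for Ser5P in KD libraries, against 32.1% and 32.3% in control libraries, and 35.6% and 34.0% for Ser2P in KD libraries, against 33.0% and 28.0% in control libraries. The 2 marks were nearly level over genes at large and apart over histone genes.

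Between 200 and 500 bp downstream the Ser2P libraries of the lines separated over histone genes. At 100 bp they did not, with 31 and 24 of the 61 genes covered in KD libraries, against 25 and 10 in control libraries. At 300 bp, inside the body of most histone genes, Ser2P peaks covered 31.1% and 24.6% of them in KD libraries, against 19.7% and 6.56% in control libraries. At 500 bp, about the length of a histone gene, the shares were 29.5% and 19.7% in KD libraries, against 11.5% and 6.56% in control libraries. Over all genes at 500 bp they were 18.1% and 16.4% in KD libraries, against 13.2% and 8.12% in control libraries. The lines were apart over all genes at 100 and 300 bp as well. At 300 bp the all-gene shares were 29.4% and 27.4% in KD libraries, against 23.7% and 16.6% in control libraries, so a separation is not particular to histone genes. At 1000 bp the lines met again over histone genes, with 6 and 6 covered in KD libraries, against 6 and 4 in control libraries. Ser2P control library 2, with its short list, was the lowest of the 4 at each of these distances, and its part in this was not tested.

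**Figure D3:**
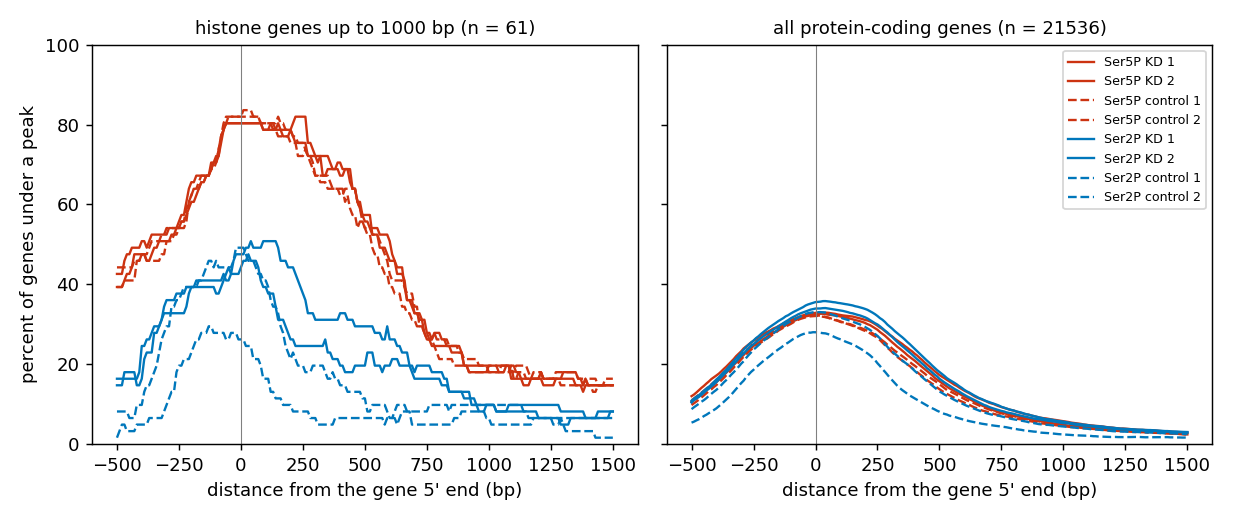
Percent of genes under a peak (vertical axis) against distance from the 5′ end in bp (horizontal axis) for the 61 histone genes of at most 1000 bp (left) and 21536 protein-coding genes (right), 1 line per library, solid for KD and dashed for control. Red Ser5P lines stand well above blue Ser2P lines over histone genes, with 80.3% to 82.0% covered at the 5′ end, and the colours overlap over all genes.

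Ser5P peaks over histone genes were wider than the lists they came from and had median ranks above the middle; Ser2P peaks were wider than their list clearly in KD libraries only, and narrower in control library 2. The fold enrichment of a peak is the authors' value and was used only inside a list. Taking the strongest peak of each gene favours high ranks, while the lists hold every peak. The strongest peaks of other genes were not ranked or measured, so these contrasts cannot be called particular to histone genes. The distinct strongest Ser5P peaks over histone genes had a median percentile of 65.4 and 70.6 in KD libraries and 67.7 and 68.8 in control libraries. The Ser2P peaks had 62.6 and 51.2 in KD libraries and 57.1 and 48.5 in control libraries. The median width of the Ser5P peaks was 948 and 1021 bp in KD libraries, against 893 and 874 bp in control libraries. Over all Ser5P peaks it was 533.5 and 532 bp in KD libraries, against 486 and 497 bp in control libraries. Ser2P peaks over histone genes were 609 and 582 bp wide in KD libraries, against 434 and 347 bp in control libraries, beside 478 and 479 bp in KD libraries and 428 and 381 bp in control libraries over all Ser2P peaks.

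**Figure D4:**
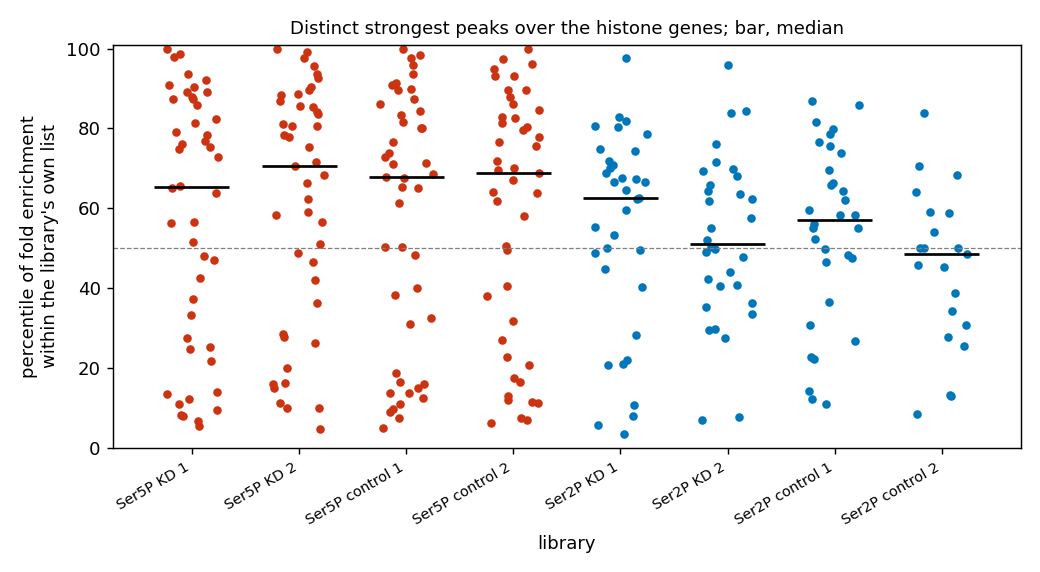
Percentile of fold enrichment within the library's own list (vertical axis) for the distinct strongest peaks over the histone genes, 1 point per peak in each of the 8 libraries, with the median as a bar and the 50th percentile dashed. Ser5P medians lie between 65.4 and 70.6, and points run from under 10 to above 99.

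No peak lay over 8 histone genes in any library: H4c12, H2bc23, H2ac23, H2ac24, H4bc24, H2bc1, H2ac1 and H3c14. H2bc1 and H2ac1 are the testis-specific H2B and H2A genes that package chromatin in male germ cells, and their promoter windows share no 50-base word with another histone promoter. Most of the others are near copies. The promoter of H2bc23 printed above is identical over its 300 bases to that of H4bc24, with 0 mismatches. H2ac23 shares 86.9% of its promoter's 50-base words with another histone gene, H2ac24 shares 73.3%, H3c14 shares 74.1% with H3c15, and H4c12 shares 11.6% with H4c11. Of the 8 unmarked genes 5 share at least 50% of the promoter words, against 5 of the 53 genes with Ser5P in all 4 libraries, and the medians were 73.7% and 0%. Reads from identical stretches cannot be placed uniquely, the submitters' handling of them is not given in the sources used here, and its part in these missing peaks was not tested. Near copies could also be marked: H3c15 had Ser5P over 48.5% and 48.9% of its window in KD cells, against 40.7% and 44.3% in control cells. Its strongest Ser5P summits lay away from the shared promoter, past the 3′ end of this 649-bp gene. They were 711 and 682 bp from the 5′ end in KD cells, and 711 and 711 bp in control cells. H2ac19, a near copy of H2ac18, had summits before its start, at −192 and −206 bp in KD cells and −191 and −206 bp in control cells.

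Between the lines, presence differed at 2 histone genes, 1 for each antibody. H3c10, an H3 gene, had no Ser5P peak in either KD library, against 348 and 292 bp under Ser5P in the control libraries, the only control-only call among the 67 (1.49%), beside 0.836% of all genes. Those 2 peaks lay over the start printed above, were weak in their lists, at the 9.65th and 6.08th percentile, and had no Ser2P partner in any library. H3c6, another H3 gene, had 382 and 251 bp under Ser2P in the KD libraries and none in either control library, the only KD-only call (1.49%), beside 1.17% of all genes. Its Ser5P was strong and present in every library, with 39.9% and 39.1% of the window covered in KD cells, against 39.4% and 34.4% in control cells, and a fold in the 96.2th to 99.1th percentile. No histone gene was called KD-only for Ser5P, beside 0.535%, or control-only for Ser2P, beside 0.329%. Shares of 1.49% are 1 gene each and near the background. The smallest two-sided exact permutation p for 2 against 2 libraries is 0.333.

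Covered percent moved little for Ser5P. It was higher in both KD libraries than in both control libraries for 17 of 67 histone genes (25.4%), beside 11.4% of all genes. It was lower in both for 6 (8.96%), beside 8.33%. Genes with no Ser5P peak cannot differ this way, and they made up 42.8% of all genes, against 11.9% of histone genes. Among genes with a Ser5P peak in any library, 17 of 59 histone genes were higher, beside 2496 of 12513 genes. Those lower were 6 of 59 histone genes, beside 1824 of 12513, a smaller share of histone genes than of all. In limma 0 histone genes and 0 of 12513 genes passed in either direction, with 4 histone genes higher (beside 4.63% of genes) and 1 lower (beside 2.99%) at an unadjusted p under 0.05. The median difference, KD minus control, was 1.16 points over the histone genes tested (41 of 59 positive) and 0.06 over all genes, and the direction flipped when each library's shares were divided by their mean over all genes, to −0.85 (22 of 59 positive) and −0.05 points. In the windows of equal length the median was 1.33 points over the histone genes, lower than the 2.03 over all genes. H4c4, an H4 gene, had the largest positive difference: 70.3% and 73.8% in KD cells, against 51.6% and 53.5% in control cells, or 19.5 ± 2.04 points (SE; limma adjusted p = 0.204). H3c10 had the largest negative one, −21.5 ± 1.60 points (limma adjusted p = 0.192). H4c4 was singled out after its values were seen.

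For Ser2P, 29 of 67 histone genes (43.3%) were higher in both KD libraries than in both control libraries, beside 24.1% of all genes. The number lower was 0, beside 1.8%. Genes with no Ser2P peak made up 41.2% of all genes, against 25.4% of histone genes. Among genes with a Ser2P peak in any library, 29 of 50 histone genes were higher, beside 5276 of 12862 genes, and 0 lower, beside 394. In limma 0 histone genes and 0 of 12862 genes passed, with 13 histone genes higher (beside 10.1% of genes) and 0 lower (beside 0.435%) at an unadjusted p under 0.05. The median difference was 11.6 points over the histone genes tested (45 of 50 positive) and 0.77 over all genes. In the windows of equal length it was 16.04 points over the histone genes and 8.79 over all genes. After the scaling used for Ser5P, chosen after seeing the data, it was 2.24 points (33 of 50 positive) and −0.04. Without Ser2P control library 2 the median over histone genes was 6.28 points (36 of 49 positive), with 11 higher and 5 lower at an unadjusted p under 0.05, and without control library 1 it was 18.0 points. H1f6 had 43.3% and 46.3% in KD cells, against 17.3% and 15.7% in control cells, a difference of 28.3 ± 3.56 points (SE; limma adjusted p = 0.269). H3c6 differed by 16.6 ± 2.67 points (limma adjusted p = 0.310). H3c13 had 71.6% and 74.6% in KD cells, against 34.6% and 7.79% in control cells. H2aw, over its short 508-bp window, had 100% and 100% in KD cells, against 44.7% and 0% in control cells. The antibody-by-line interaction in limma was called for 1 histone gene, H3c10, in the negative direction (1.49%), beside 0.166% of 13237 genes, and for 0 in the positive direction, beside 0.0302%. With no Ser2P peak there in any library, that term restates the Ser5P difference, which was not called on its own. Ser2P peaks were wider in KD libraries over all peaks as well, and Ser2P control library 2 was the shortest list. With every list cut to the same 20793 peaks the median over histone genes was 11.7 points (42 of 45 positive); the part of peak width was not tested.

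**Figure D5:**
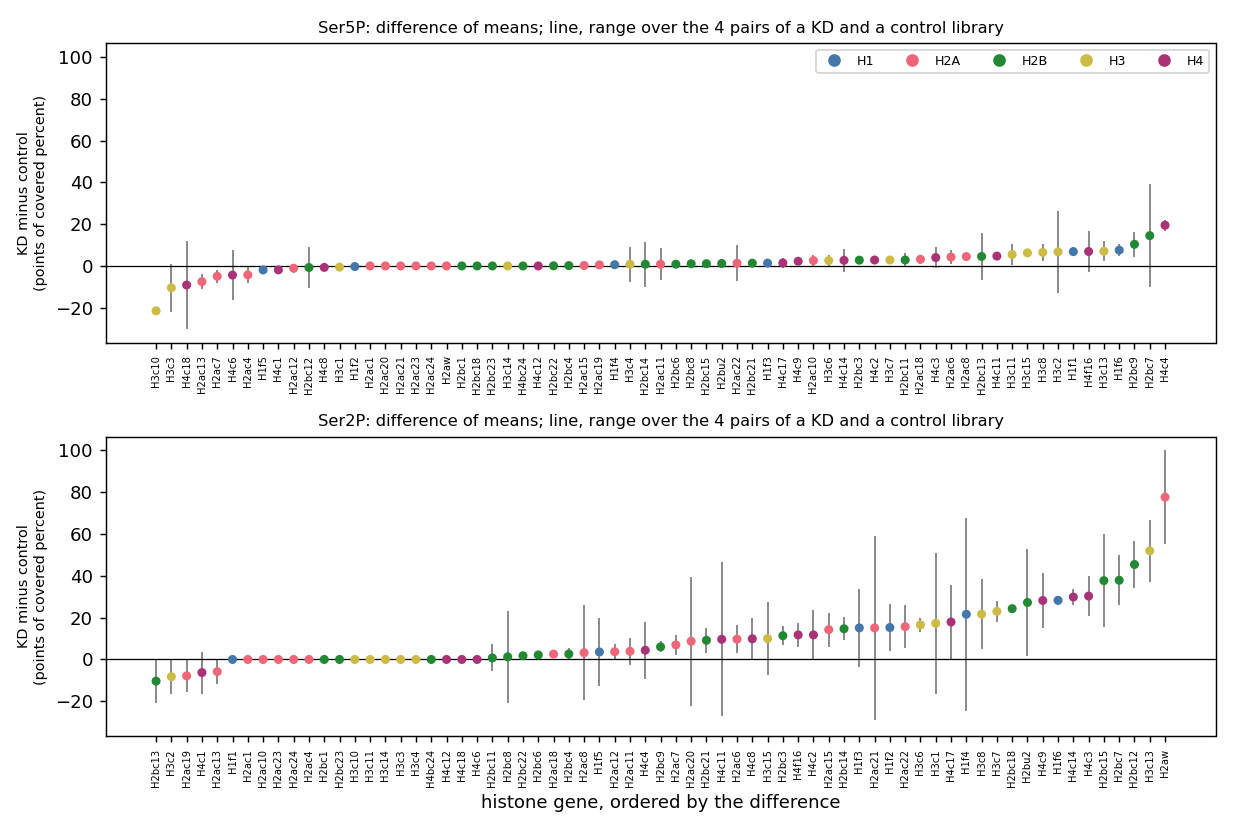
KD minus control difference in mean covered percent (points) for each of the 67 histone genes, ordered by size, for Ser5P (top) and Ser2P (bottom), coloured by class, with grey lines spanning the 4 pairs of a KD and a control library. Ser5P differences run from −21.5 at H3c10 to 19.5 at H4c4, with H2bc7 at 14.5, H2bc9 at 10.3 and H3c3 at −10.5 between them. Of the Ser2P lines, 29 lie wholly above 0 and 0 wholly below.

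Most genes of the machinery that serves these genes were marked too. Of 21 genes for histone transcription and messenger RNA processing, among them Npat, Slbp and Hinfp, 20 had Ser5P in all 4 libraries, beside 46.4% of all genes. Ser2P was in all 4 libraries over 17, beside 45.6% of all genes. Ncbp2, a cap-binding subunit, was marked in 3 Ser5P libraries. Some marks were short: Cpsf3 had 37 and 39 bp under Ser5P in KD libraries, against 48 and 88 bp in control libraries. Of 11 histone variant genes listed as replication-independent, spread over the genome, 8 had Ser5P and 8 had Ser2P in all 4. The shares of all genes are those above, 46.4% and 45.6%. No gene of either list was called by presence between the lines. One variant gene passed for Ser5P against Ser2P: H2az1, encoding H2A.Z, had 1205 and 1340 bp under Ser5P in KD cells and 1185 and 1198 bp in control cells, and 723 and 786 bp under Ser2P in KD cells and 649 and 709 bp in control cells. Its difference was 15.0 ± 1.75 points (limma adjusted p = 0.0183), over a longer window than that of a clustered histone gene.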

How the data were processed

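Peaks were measured by CUT&Tag in 8 libraries, in 4 groups of 2 taken from the labels. The lists were called per library with MACS2 2.2.7.1 on GRCm38 (mm10), and cutadapt 2.7, Bowtie2 2.3.5, SAMtools 1.9, Picard 2.21.4 and deepTools 3.3.1 are also named, per the submitters' processing notes. Neither their settings, nor any control library, nor the treatment of reads with several placements is given in the sources used here. Each deposited list holds, for every peak, a score, a fold enrichment (a ratio over the local background) and the −log10 p and −log10 q as the authors' peak caller gave them, beside other fields such as the deposited summit offset. Every peak had a −log10 q of at least 1.30, so depth is unknown and a missing peak says only that none was listed.

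From these, each RefSeq protein-coding gene was extended by 500 bp, stopping at the next gene. A gene was marked at 1 bp of overlap, and called KD-only or control-only when both libraries of 1 line and neither of the other were marked. The covered percent was fitted with limma 3.58.1 (eBayes with trend, Benjamini-Hochberg over all genes with a peak in the libraries fitted, in R 4.3.3), with the line as covariate for Ser5P minus Ser2P. The procedure was tested on simulated data. Strand came from RefSeq promoters for 62 genes and from GENCODE vM1 by name for 5. Libraries were not paired by number in the main fits.

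The genes, lists and tests were chosen with earlier results of these data known. Genes named are those called by presence, up to 4 per class with the highest mean fold percentile among genes marked in all 8 libraries, all on chromosomes 3, 11 and 6, those with no peak, the 6 with the smallest p past the threshold in each fit, and called members of 2 lists. Others serve as examples. Alternatives were a stricter −log10 q of 5, other windows, equal list lengths, summits, 200 bp, no filter, a replicate block and each library left out.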

Additional observations from a re-analysis of the deposited data

Results flagged for a closer look

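H3c10 stood out in the interaction of antibody and line, a term that here restates its Ser5P difference against a fixed 0. Ser5P covered 0% and 0% of its window in KD cells, against 23.4% and 19.6% in control cells, and Ser2P covered 0% in all 4 libraries of both lines. KD minus control for Ser5P less the same for Ser2P was −21.51 ± 1.74 points of covered percent (SE; the interaction term of limma over all 8 libraries, adjusted p = 0.0233). This was 1 of 59 histone genes tested, beside 0.166% of 13237 genes called in that direction. The Ser5P difference alone had the same size and did not pass (limma adjusted p = 0.192 over the 4 Ser5P libraries). Ser2P stood at 0 in every library, which adds libraries without spread to the term, so no difference between the antibodies can be read from it, and the 2 control peaks were low in their lists (fold 3.48 and 3.12).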

How the results depend on the processing

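The Ser5P counts moved least: 58 genes stayed the number marked in all libraries, whichever library was left out. The number was 57 with the gene alone, 59 with 1000-bp extensions and 51 with the summit inside the window. Some of the 58 were thus marked by peaks with summits outside their window. For Ser2P the 28 became 20 with the gene alone or the summit inside, and 21 with a −log10 q of at least 5. The pooled median summit distance of 3 bp moved by less than its spread for both antibodies with a −log10 q of at least 5. With 1000-bp extensions 0 genes were control-only for Ser5P. For Ser2P, 2 genes were KD-only with a −log10 q of at least 5, the gene alone, extensions divided at the midpoint, at least 200 bp covered or the summit inside, and 2 were control-only with the summit inside. Leaving out 1 library gave 1 to 10 KD-only and 0 to 3 control-only Ser2P calls (10 without control library 1), with none for Ser5P KD-only and 1 throughout for Ser5P control-only. H3c10 lost its call under 1 alternative (1000-bp extensions) and H3c6 under 2 (a −log10 q of at least 5 and equal numbers of peaks).

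The 28 histone genes called higher for Ser5P than Ser2P became 6 with the replicate block and 17 with no filter on unmarked genes, 0 within KD, 0 within control, and 11 to 26 leaving out 1 library. The same-numbered libraries did not deviate together (correlations 0.07, 0.05, −0.01 and −0.10 over genes), and the labels give no shared batch for equal numbers. These correlations cannot exclude a shared culture, so whether the block belongs in the fit is not known. The cause of these moves was not tested. The fits within a line or without 1 library also had fewer libraries, and the part of that was not tested either. In limma no histone gene was called lower for Ser5P than for Ser2P, and 0 between the lines for either antibody, under every alternative run. Where 1 library of a group was left, it was assumed to vary like the others. The low counts between 2 and 2 libraries do not show that the lines are alike, and depth could not be weighed from peak lists.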
